A study of Homo sapiens with 3 samples.

Results

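The poly(A) binding protein family of human HEK293T cells was described here as 8 genes matched by symbol among the 57268 rows of a table of reads per gene. They were PABPC1 (ENSG00000070756.9, chromosome 8), PABPC3 (ENSG00000151846.7, chromosome 13), PABPC4 (ENSG00000090621.9, chromosome 1), PABPC1L (ENSG00000101104.8, chromosome 20), PABPC5 (ENSG00000174740.7, chromosome X), PABPN1 (ENSG00000100836.6, chromosome 14), PAIP1 (ENSG00000172239.9, chromosome 5) and PAIP2 (ENSG00000120727.8, chromosome 5). Each was found once. The set was drawn up with results of these libraries in view, and PABPC3 was selected on its ratio of normalised reads with SRSF9 added to ADAR2, which was below 1. Its values in that comparison, and in the other comparison that uses the same library, are therefore a description. In all, 7 of the 8 had a mean of 1 or more CPM, reads per 1e6 reads of the scaled library, over the libraries, and PABPC5 had no reads.

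Sequencing covered 3 libraries of HEK293T, a line derived from human embryonic kidney, and each group had 1 library. The cell line label gives HEK 293T, and the sample titles write HEK293. The groups were cells overexpressing ADAR2 together with SRSF9, cells overexpressing ADAR2 alone, and wild-type control cells without overexpression. ADAR2 (gene ADARB1) is an enzyme that converts adenosines of RNA duplexes into inosine. SRSF9 belongs to the SR family of splicing factors, and the study asked how it acts on editing by ADAR2. The labels name no empty-vector transfection of the control, so effects of the proteins and of transfection cannot be told apart. Nor can fewer cells and less RNA per cell in such bulk RNA. Totals were 97875935 reads with both proteins, 132887974 with ADAR2 and 152878282 in the control. ADARB1 stood at 13647, 16100.0 and 113.6 CPM in that order, and SRSF9 at 18288, 369 and 372 CPM, as labelled. All 7 HEK293 markers examined, such as VIM and NEFM, had reads in every library, with summed levels of 727, 769 and 760 CPM. Of the erythroid markers, the globin genes HBB and HBD were high with both proteins (383 and 946 CPM) and at most 3.69 CPM in the other libraries. The globin genes HBA1 and HBA2 were not higher with both proteins than with ADAR2. HBA1 had 6.28, 6.54 and 5.06 CPM with both proteins, with ADAR2 and in the control, and HBA2 had 5.38, 5.67 and 4.55. ALAS2, the erythroid enzyme of haem synthesis, was at 0.376, 0.395 and 0.324 CPM with both proteins, with ADAR2 and in the control. The part of the globin reads in the results was not tested. With 1 library per group, no p-value is given, and intervals cover counting error only.

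Cytoplasmic poly(A) binding proteins coat the poly(A) tail of messenger RNA and bind the initiation factor eIF4G at the cap, which joins the ends of the message and favours translation. They also recruit deadenylases and the termination factor eRF3. The nuclear protein PABPN1 binds the growing tail and sets its length during polyadenylation. PAIP1 and PAIP2 bind the cytoplasmic proteins, PAIP1 favouring translation and PAIP2 opposing it.

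PABPC3 is a retrocopy: it arose from a reverse-transcribed PABPC1 messenger RNA, and the GENCODE v29 annotation (build GRCh38, not the authors' hg19) gives it 1 exon. Reads of the parent and the copy could therefore be assigned to each other in counting. In an alignment of the annotated transcripts, 94.5% of 2663 aligned bases were identical to PABPC1, and 84 of 1890 aligned coding bases differed. Coding bases 86 to 205 of PABPC3 (chromosome 13) are shown because no other gap-free coding window of 120 bases holds more differences from PABPC1. The 15 differing bases are in capitals. The same part of the pseudogene PABPC1P4 (chromosome 12) has 8, also in capitals. Both come from GENCODE v29 transcripts and read 5′ to 3′.
PABPC3: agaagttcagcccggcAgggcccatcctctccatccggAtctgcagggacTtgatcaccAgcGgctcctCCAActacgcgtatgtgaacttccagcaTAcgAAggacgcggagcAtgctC
PABPC1P4: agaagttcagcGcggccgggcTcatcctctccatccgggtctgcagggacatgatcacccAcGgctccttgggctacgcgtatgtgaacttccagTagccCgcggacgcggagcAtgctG
The longest stretch of PABPC3 identical to a PABPC1 transcript was 144 bases. Windows of 50 bases that occur unchanged in PABPC1 made up 6.77% of all such windows of PABPC3, those of 75 bases 2.45% and those of 100 bases 1.37%. The read length is not given in the sources used here.

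Per length, PABPC3 reached 1.19%, 1.73% and 1.68% of the level of PABPC1 with both proteins, with ADAR2 and in the control, and the other 5 detected genes lay between them. PABPC1, the main cytoplasmic protein of this family in dividing cells, had 362.5 CPM per kilobase of its longest transcript with both proteins, 381.7 with ADAR2 and 387.4 in the control. PABPC4, a cytoplasmic protein first described in activated T cells, followed at 57.2, 54.1 and 51.5 CPM per kilobase. PABPN1, the nuclear member, came next with 33.6, 32.8 and 35.6 CPM per kilobase. PABPC1 alone supplied 77.8%, 79.0% and 79.7% of the summed CPM of the 6 PABP genes in the library with both proteins, with ADAR2 and in the control.

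The PAIP genes lay below PABPN1. PAIP2 had 23.4, 25.2 and 25.1 CPM per kilobase in the same library order. PAIP1 had 20.1, 19.3 and 20.7, close to PABPC1L, a relative of PABPC1 best known from oocytes, with 21.1, 20.3 and 17.2. By the longest transcript this pair was the 1 place where the order changed. PABPC1L stood above PAIP1 in both overexpressing libraries and below it in the control. Per kilobase of the exon union PAIP1 stood above PABPC1L in each library, at 16.5, 15.8 and 17.0 CPM against 9.41, 9.05 and 7.69. PABPC3 was lowest of those detected, at 4.31, 6.61 and 6.51 CPM per kilobase. The control order was the same with the length of the exon union or of the longest protein-coding transcript.

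**Figure D1:**
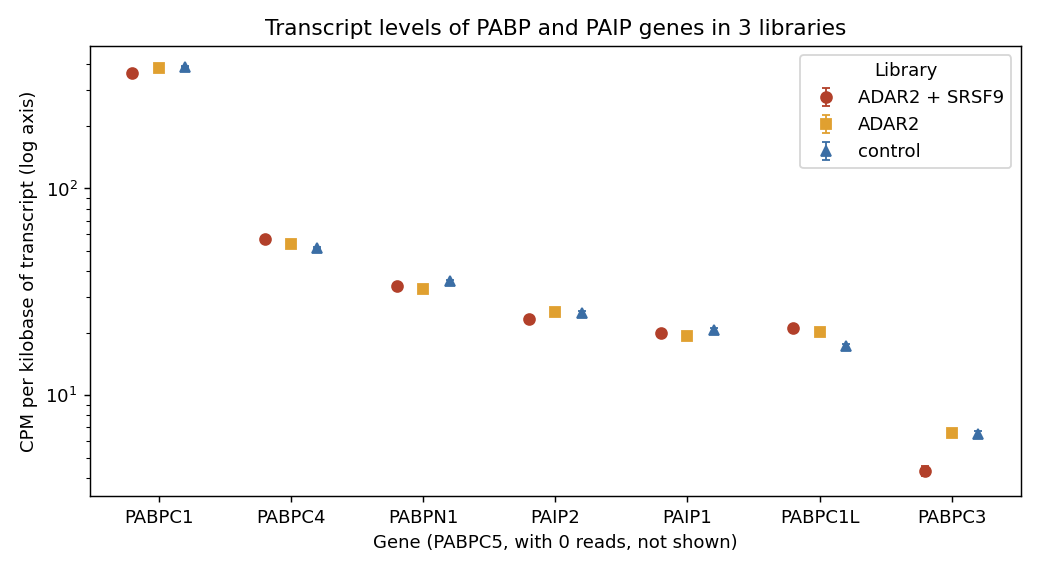
Levels of 7 genes in CPM per kilobase of the longest annotated transcript (log axis), by library, with 95% counting intervals mostly smaller than the symbols. PABPC1 lies far above the others, at 362.5 to 387.4, and PABPC3 lowest, with the library of both proteins (4.31) below the other libraries (6.61 and 6.51).

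PABPC5, an X-linked member, had 0 reads in each library, which allows up to 0.0313 CPM with both proteins, 0.0223 with ADAR2 and 0.0194 in the control. An entry of 0 in this table need not mean an absent transcript: EEF1G, a subunit of the translation elongation factor complex present in all dividing cells, was also listed at 0 in each. PABPC5-AS1, which overlaps PABPC5 on the other strand in GENCODE v29, had no reads either.

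PABPC3, the member selected on its ratio, is described first. It had 1399 reads with both proteins, 3005 with ADAR2 and 3406 in the control, or 14.6, 22.4 and 22.05 CPM. The library with both proteins stood apart and the other libraries were level. Against ADAR2 the ratio was 0.652 (95% counting interval 0.611 to 0.695), and against the control 0.662 (0.622 to 0.705). Both ratios were past 1.5-fold, and both intervals reach across that threshold. With the trend of log2 ratio on GC content removed the change against the control was -0.47 on the log2 scale, short of 1.5-fold, and that against ADAR2 was -0.62. In ADAR2 against control PABPC3 was at 1.02 times (0.966 to 1.07).

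The other 6 detected members were within 1.5-fold in each comparison. Of the 7 measured members, 1 was lower by 1.5-fold or more with both proteins against ADAR2, where 2.52% of the 16072 measured genes were lower and 0.871% higher by that rule. The same 1 member was lower in both proteins against control, where 2.43% of genes were lower and 1.56% higher. None was called in ADAR2 against control, against 0.641% of genes lower and 0.622% higher. Since PABPC3 was chosen for this ratio, nothing is read from these counts. The 2 comparisons that call it share the library with both proteins.

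Among the cytoplasmic members with introns, PABPC1 had 121118, 178605 and 208595 reads with both proteins, with ADAR2 and in the control, or 1263, 1330 and 1350 CPM. It was slightly lower with both proteins, at 0.9497 times ADAR2 (0.943 to 0.957) and 0.936 times the control (0.929 to 0.942). PABPC4 had 205.5, 194.2 and 185.1 CPM. It ran the other way, at 1.06 times ADAR2 (1.04 to 1.08) and 1.11 times the control (1.09 to 1.13). On the log2 scale these were 0.08 and 0.15, and with the GC trend removed 0.07 and 0.08. PABPC1L had 46.9, 45.1 and 38.3 CPM, so that both overexpressing libraries lay above the control. It was 1.22 times the control with both proteins (1.18 to 1.27) and 1.18 times with ADAR2 (1.14 to 1.22), while both proteins against ADAR2 gave 1.04 times, with an interval that includes 1 (0.9998 to 1.08).

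PABPN1 had 93.0, 90.9 and 98.5 CPM in the same library order. It was at 1.02 times ADAR2 with both proteins (0.996 to 1.05), a ratio that was below 1 with plain library totals, and 0.923 times the control in the ADAR2 library (0.901 to 0.945). Its gene overlaps the readthrough gene BCL2L2-PABPN1, which had 30, 51 and 54 reads. How shared reads were counted is not stated.

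The tail-protein partners differed as little. PAIP1, the translational activator, had 55.8, 53.7 and 57.7 CPM and was at 1.04 times ADAR2 with both proteins (1.003 to 1.08). PAIP2, the translational repressor, had 53.7, 57.9 and 57.6 CPM and was at 0.927 times ADAR2 (0.895 to 0.961). The repressor PAIP2B, a second gene of this type that was not a member, had 31.7, 36.4 and 38.5 CPM and was at 0.870 times ADAR2 (0.831 to 0.910) and 0.824 times the control (0.789 to 0.861). Both repressor genes were thus below their ADAR2 level in the library with both proteins and PAIP1 was above it. Against the control PAIP1 was below 1 too, at 0.967 times with an interval that includes 1 (0.934 to 1.0003). PAIP2 was at 0.933 times the control (0.901 to 0.965). With the GC trend removed, PAIP1 and PAIP2 with both proteins were above their control levels, each at 0.06 on the log2 scale.

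Counting error alone does not set such small ratios apart. With both proteins against ADAR2 the counting interval excluded 1 for 5 of 7 members and 50.5% of measured genes. The shares were 6 of 7 and 68.8% for both proteins against control, and 5 of 7 and 63.9% for ADAR2 against control. The spread between repeat libraries is unknown.

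**Figure D2:**
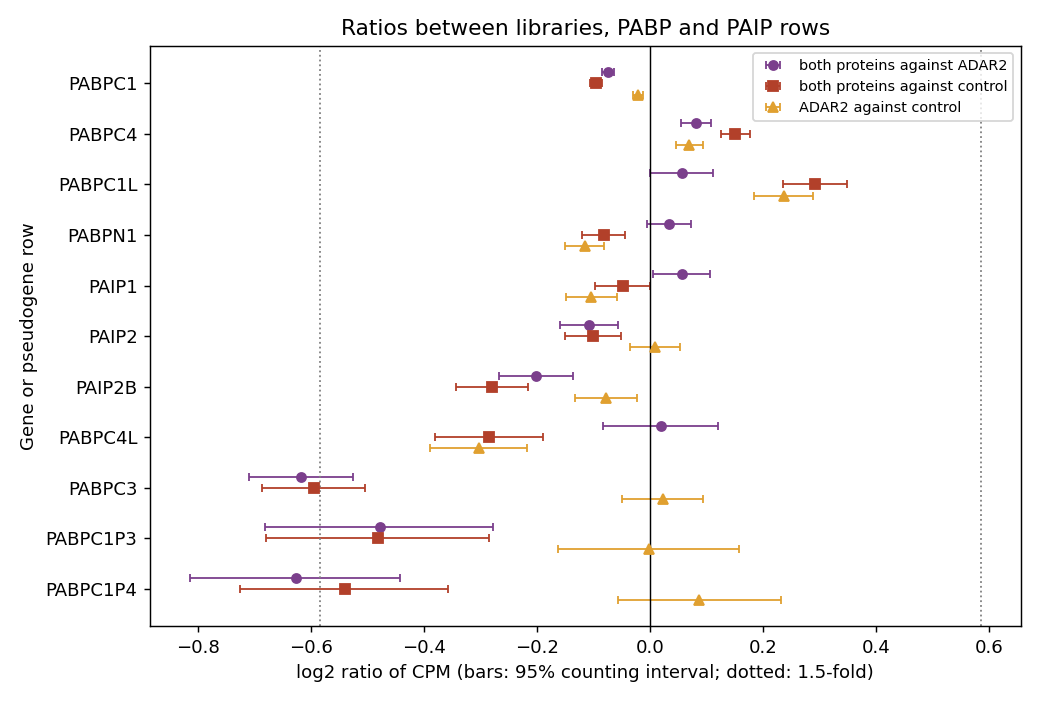
Log2 ratios of CPM for 11 rows of the PABP and PAIP families in 3 comparisons, with 95% counting intervals and dotted lines at 1.5-fold. PABPC3, PABPC1P3 and PABPC1P4 lie to the left in both comparisons that use the library with both proteins, while the 6 detected members with introns, PAIP2B and PABPC4L stay inside the dotted lines.

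Besides the 8 members, 21 rows carry a PABP or PAIP name or join one. Of these, 6 had no reads, 4 had 1 to 9 reads over the libraries and 11 had 10 or more. Only PAIP2B, PABPC4L, PABPC1P3 and PABPC1P4 among them reached a mean of 1 CPM.

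Both measured pseudogenes of PABPC1 had ratios near that of PABPC3. PABPC1P4 had 349, 755 and 818 reads with both proteins, with ADAR2 and in the control, and was at 0.648 times ADAR2 (0.569 to 0.736). PABPC1P3 had 308, 601 and 693 reads and was at 0.718 times ADAR2 (0.624 to 0.825). In ADAR2 against control they were at 1.06 (0.961 to 1.17) and 0.998 times (0.893 to 1.11). In each of the 3 copies the library with both proteins was the low one and the other libraries were close together.

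Below 1 CPM the copies were mixed. PABPC1P1 had 15, 92 and 51 reads, 0.233 times ADAR2 with both proteins (0.123 to 0.397), but the ADAR2 library was also above the control (2.06 times, 1.46 to 2.98). PABPC1P10 had 34, 64 and 47 reads, and PABPC1P2 had 0, 8 and 12. PABPC1P7 had 9, 8 and 8 reads and was not lower. The pseudogene PAIP1P1 had 48, 86 and 61 reads, 0.783 times ADAR2 with an interval that spans 1 (0.537 to 1.13).

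PABPC4L is tagged as a retrogene too, as PABPC3 is. It shares no 50-base window with PABPC1, and its longest identical stretch was 20 bases. PABPC4 shares no such window with PABPC1 either, and PABPC4L was not compared with PABPC4. Read sharing of PABPC4L with other genes was therefore not examined. PABPC4L had 1367, 1890 and 2684 reads with both proteins, with ADAR2 and in the control. That is 14.3, 14.1 and 17.4 CPM, a level like that of PABPC3. With both proteins it was at 1.01 times ADAR2 (0.944 to 1.09), and both overexpressing libraries lay below the control (0.821 and 0.810 times). On the log2 scale these were -0.28 and -0.30, and with the GC trend removed -0.10 and -0.12.

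Set against the parent, the copies took a smaller part of the reads with both proteins. PABPC3 had 11.6 reads per 1000 PABPC1 reads there (exact 95% binomial interval 10.95 to 12.2), against 16.8 with ADAR2 (16.2 to 17.4) and 16.3 in the control (15.8 to 16.9). PABPC1P4 had 2.88 (2.59 to 3.20), 4.23 (3.93 to 4.54) and 3.92 (3.66 to 4.20), and PABPC1P3 had 2.54 (2.27 to 2.84), 3.36 (3.10 to 3.65) and 3.32 (3.08 to 3.58). For each copy the interval with both proteins lies below the other intervals. With both proteins minus ADAR2, the 14 listed copies together differed by -11.7 CPM and PABPC1 by -66.9 CPM, from a PABPC1 level of 1330 CPM with ADAR2. Whether reads moved between parent and copies cannot be seen in a table of reads per gene. The library with both proteins is also the shallowest, and the part of depth in this difference was not tested.

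**Figure D3:**
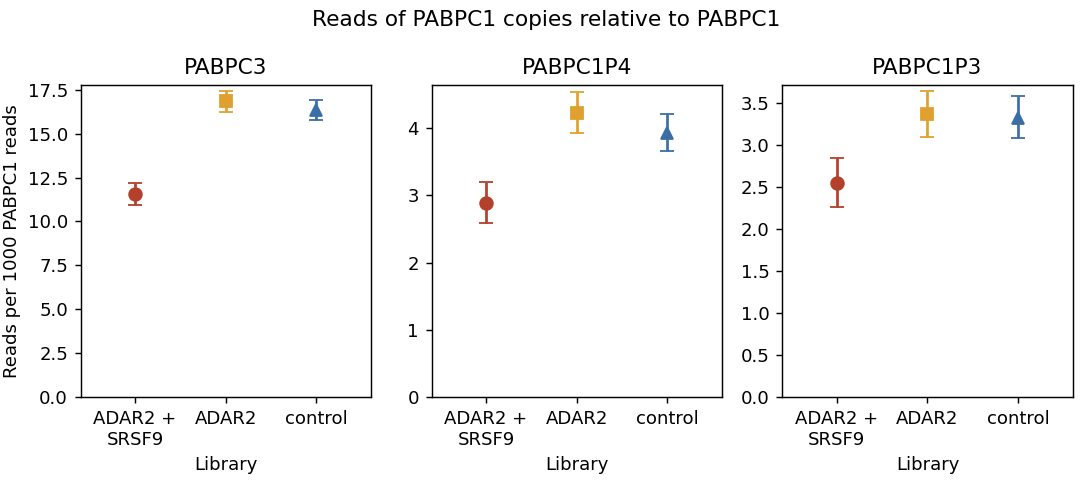
Reads of PABPC3, PABPC1P4 and PABPC1P3 per 1000 PABPC1 reads in each library, with exact 95% binomial intervals. In all 3 panels the library with both proteins is lowest (11.6, 2.88 and 2.54) and the ADAR2 and control intervals overlap.

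Other coding retrocopies were set against their parents in the same way. Of 18 coding retrocopies listed with their parents, 10 pairs had both genes at 1 CPM or more. Without PABPC3 and PABPC1, whose ratio was used in the selection, 9 pairs remained. With both proteins against ADAR2 the log2 ratio of the copy was below that of its parent in 9 of 9 pairs, with a median difference of -0.32 and a range of -0.85 to -0.12. In ADAR2 against control it was below in 5 of 9, with a median of -0.04. With both proteins against ADAR2, 9 of the 10 measured copies, PABPC3 included, were below 0 and 1 was above. Some differences lay mostly in a parent above 0. RPL36AL was at 0.06 and its parent RPL36A at 0.24. RBMXL1 was at -0.04 with its parent RBMX at 0.17, and CSTF2T at -0.03 with its parent CSTF2 at 0.10. HNRNPCL1, a copy of the splicing factor gene HNRNPC, was lowest at -0.77 on the log2 scale, and GLUD2, a copy of the glutamate dehydrogenase gene GLUD1, was at -0.61. These were the 2 of those 9 copies lower by 1.5-fold or more in that comparison, where 2.52% of all measured genes were. Of the 12765 measured protein-coding genes, 56 were lower by that rule. With so few copies, listed by hand with earlier results known, nothing general to retrocopies is read from these 2 copies or from the 9 of 9 pairs. The 134 measured genes that GENCODE v29 tags as retrogenes, PABPC3 left out, had a median log2 ratio of -0.0040 with both proteins against ADAR2. Those genes were not set against parents. UTP14C, a copy of UTP14A, differed otherwise: it was at -0.51 in ADAR2 against control and at -0.10 in both proteins against ADAR2.

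**Figure D4:**
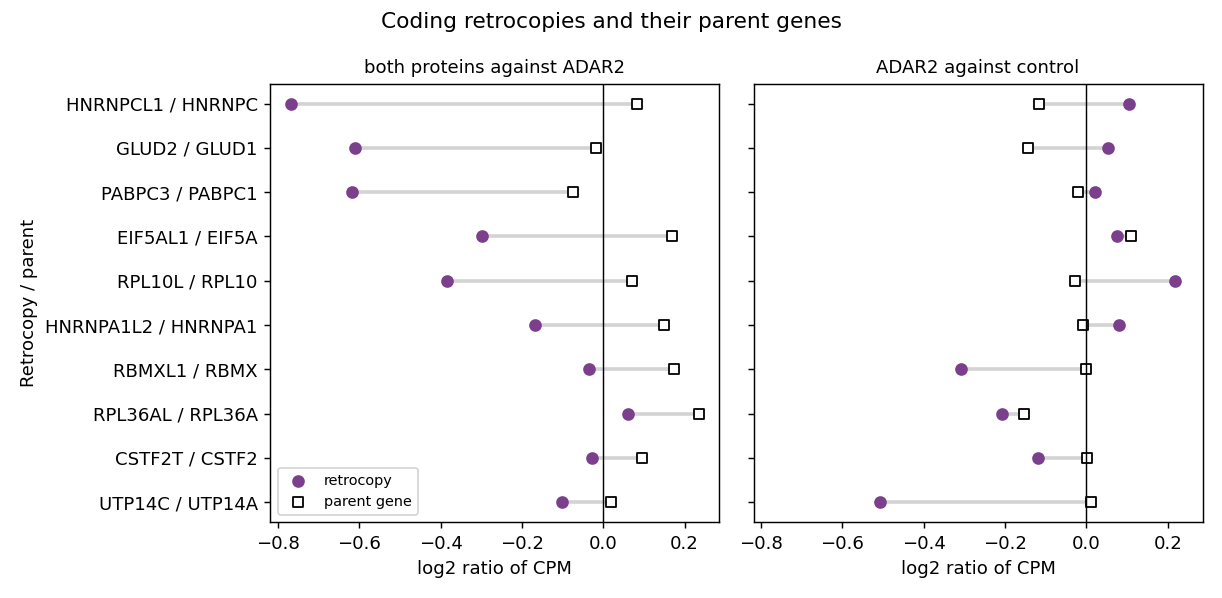
Log2 ratios of CPM for 10 coding retrocopies (filled circles) and their parents (open squares), joined by a line. With both proteins against ADAR2 the 9 copies other than PABPC3, which was selected on this ratio, lie left of their parents, while in ADAR2 against control 5 of the 9 do. The pairs were listed by hand.

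Among 10048 genes compared, those whose pattern over the 3 libraries was most like that of PABPC3 were pseudogenes. Likeness was the distance between genes in the plane of the log2 ratios of ADAR2 against control and of both proteins against ADAR2, over 10048 genes with a mean of 10 CPM or more, without members and clone-based names. The 5 nearest were NPM1P6, EEF1A1P19, SERBP1P5, RPL29P12 and HMGN1P38, at distances of 0.0224 to 0.0452, and GENCODE v29 lists each as a processed pseudogene. NPM1P6 had 1177, 2561 and 2928 reads with both proteins, with ADAR2 and in the control. The 5 nearest to PABPC1 were the protein-coding genes ZBTB39, RIT1, SMIM11, AP3M2 and PCMTD2, at 0.00153 to 0.00402. With 3 libraries a pattern holds 2 ratios, so many genes lie close. PABPC3 was selected on the ratio of both proteins against ADAR2, so its neighbours had to be low in that ratio. Of the 405 measured genes lower by 1.5-fold or more there, 308 were processed pseudogenes. The neighbours of PABPC3 are therefore a description.

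As a class, the 1094 measured processed pseudogenes had a median log2 ratio of -0.46 with both proteins against ADAR2, and 91.8% of them were below 0, against 42.8% of the 12765 measured protein-coding genes. PABPC3, annotated as protein-coding and selected on this ratio, was at -0.62, and 23.9% of these pseudogenes were lower still. Its place among them, and its distance from the other members, are therefore a description. The other detected members ran from -0.11 (PAIP2) to 0.08 (PABPC4), and the median of the protein-coding genes was 0.02.

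The wider machinery of the poly(A) tail was described with 5 lists of 106 distinct genes, of which 102 had a mean of 1 CPM or more. Of these 102, 0 were past 1.5-fold in each of the 3 comparisons. Since 0.622% to 2.52% of all measured genes were called in one direction, a list of this length has few calls at the share of all genes, and nothing particular to it is read from the 0. Below 1 CPM, PAPOLB, a poly(A) polymerase known from testis, had 11, 15 and 58 reads with both proteins, with ADAR2 and in the control. GSPT2, an eRF3 gene, had 10, 41 and 40 reads. The GC trend was not removed from the list medians that follow. In both comparisons with the control that trend stood at -0.13 at the GC content of PABPC3 (41.7%). The part of GC content in the medians was not tested. Over all measured genes the median log2 ratio was 0.012 with both proteins against ADAR2, -0.0058 with both against control and -0.00094 for ADAR2 against control. For poly(A) polymerases and 3′ end processing (23 of 24 measured) the medians in that order were 0.02, -0.06 and -0.09. PAPOLA, the main poly(A) polymerase, had 211.4, 213.6 and 250.5 CPM with both proteins, with ADAR2 and in the control. FIP1L1, which tethers that enzyme, was furthest from 0 with both proteins against ADAR2, at -0.18.

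Deadenylases, which shorten the tail (20 of 20 measured), had medians of -0.04, -0.07 and -0.09. The scaffold of the CCR4-NOT complex, CNOT1, had 303.0, 322.0 and 351.8 CPM in the same library order, and TOE1 was furthest from 0 with both proteins against ADAR2, at 0.14. Genes of nuclear poly(A) RNA surveillance (12 of 12 measured), which send tailed nuclear RNA to the exosome, had medians of -0.01, -0.09 and -0.12. ZFC3H1, which works with PABPN1 in that pathway, was at -0.10 with both proteins against ADAR2 and -0.33 against the control.

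PABP partners in translation and decay (28 of 30 measured) had medians of -0.02, -0.11 and -0.09. The scaffold EIF4G1, which PABPC1 binds, had 515.1, 490.2 and 511.1 CPM with both proteins, with ADAR2 and in the control. EIF4A1, the helicase of the cap complex, was furthest from 0 with both proteins against ADAR2, at 0.57, with 22.2, 14.9 and 16.1 CPM in the same library order. It overlaps the readthrough gene SENP3-EIF4A1 in GENCODE v29, and how shared reads were counted is not stated. PABPC1 itself belongs to the messengers with a terminal oligopyrimidine tract, which are translated together under growth control. The other listed messengers of that class outside the ribosomal proteins (20 of 21 measured, EEF1G being the exception) had medians of -0.01, -0.05 and -0.08, against -0.07, -0.10 and -0.02 for PABPC1. EEF1D was furthest from 0 among them with both proteins against ADAR2, at 0.16.

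**Figure D5:**
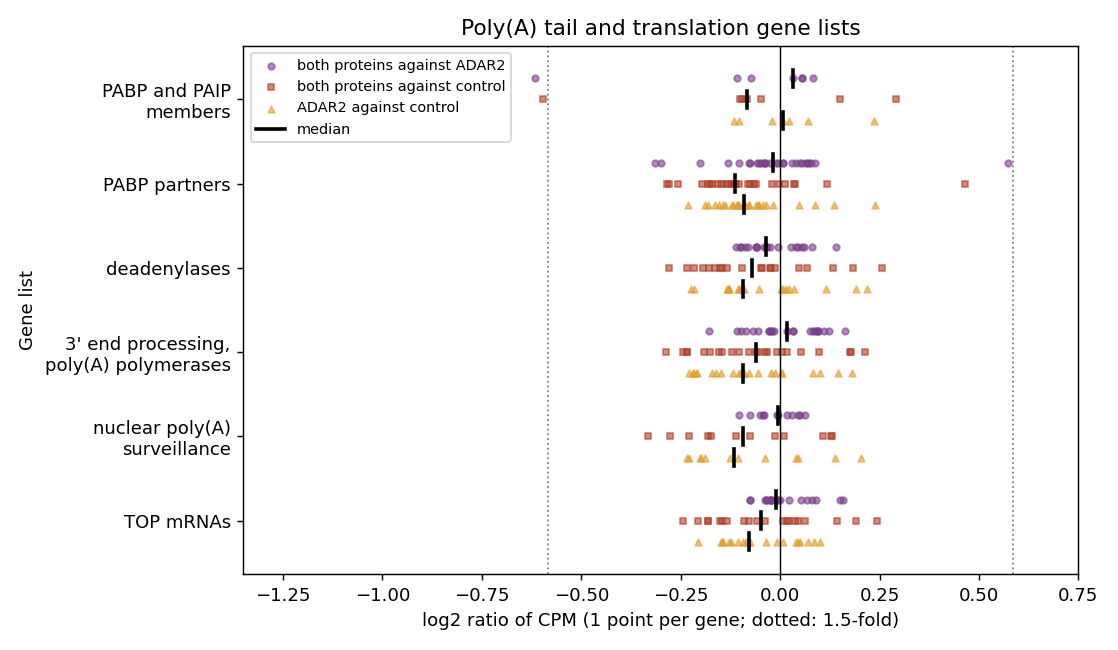
Log2 ratios of CPM for the members and 5 lists of poly(A) tail and translation genes in 3 comparisons, 1 point per measured gene, with the median as a black bar and dotted lines at 1.5-fold. Points of the 5 lists all lie inside the dotted lines, and PABPC3 is the point outside them among the members.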

How the data were processed

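RNA sequencing of HEK293T cells gave 1 library for each of 3 groups. Total RNA was extracted with Trizol and libraries were made with a NEBNext Ultra Directional kit, per the labels' protocols. Per the submitters' processing notes the genome build was hg19 and the tools included STAR, Picard, GATK and SAMtools. The program that counted reads, with its strand setting, and the read length stand as not given in the sources used here. Values are raw whole-number counts of reads for each gene as the authors deposited them, and columns were matched to samples by the library code in the labels.

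Scaling of library sizes used TMM (edgeR 4.0.16, R 4.3.3), and CPM are reads per 1e6 of the scaled size. Log2 ratios used a prior count of 0.5. Their 95% intervals come from exact Clopper-Pearson bounds on how a gene's reads divide between the libraries compared. A gene was measured at a mean of 1 CPM or more (16072 genes), and called at 1.5-fold or more with an interval that excludes 1. GENCODE v29 gave gene types, lengths and GC content by identifier (469 measured genes unmatched). Each pathway list names its members past 1.5-fold, or else the one furthest from 0 with both proteins against ADAR2, with highly expressed members for levels. Members, lists and settings were chosen with earlier results of these data known. Alternatives of scaling were DESeq2 1.42.0 size factors, plain totals, upper-quartile scaling, and TMM sizes computed without ADARB1, SRSF9 and mitochondrial genes. Other alternatives were no filter, a mean of 10 CPM, removal of the GC trend and a prior count of 5. An interval lying wholly past 1.5-fold, a threshold of 2-fold and other transcript lengths were also used. Other steps used Python 3.11.15, numpy 2.4.6, pandas 2.3.3, scipy 1.17.1, Biopython 1.88 and matplotlib 3.10.9. The calculation was tested on simulated counts. One marker gene is not reported here.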

Additional observations from a re-analysis of the deposited data

How the results depend on the processing

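No paired analysis was possible because each group has 1 library and the labels give no replicate numbers, and no library could be left out. The call of PABPC3 against ADAR2 and against the control held under each scaling, without a filter, at 10 CPM and with a prior count of 5. The number of members called was 0 in both comparisons at 2-fold and with an interval wholly beyond 1.5-fold, and 0 against the control with the GC trend removed. The log2 ratio of PABPC3 ranged from -0.66 to -0.61 against ADAR2 and from -0.64 to -0.47 against the control. PABPC3 reads per PABPC1 read moved by less than their intervals. PABPN1 changed sign between scalings with both proteins against ADAR2, from -0.011 to 0.036. PABPC4L did so in the same comparison, and PABPC1P3 and PAIP2 in ADAR2 against control, all near 0. Removing the GC trend changed the sign of PAIP1 and PAIP2B in ADAR2 against control and of PAIP1 and PAIP2 in both proteins against control, all within 1.5-fold. Levels per kilobase moved with the length used in 21 of 42 alternatives, including the longest protein-coding transcript, added after the data were seen.

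Counts of genes past 1.5-fold moved with the filter and threshold by construction, and are given here as higher and lower for both proteins against ADAR2, both against control and ADAR2 against control. Without a filter they were 2001 and 1930, 2389 and 2260, and 1555 and 2103. At a mean of 10 CPM they were 15 and 48, 26 and 41, and 2 and 7. At 2-fold they were 46 and 34, 49 and 41, and 11 and 34. With an interval wholly beyond 1.5-fold they were 54 and 103, 72 and 101, and 22 and 47. With the GC trend removed, 156 were higher with both proteins against control, against 250 without that step.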

Other observations

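The following group was examined after the values of PABPC3 were seen. GENCODE v29 tags 359 of the rows as retrogenes, intact coding genes that arose by retroposition, and 135 of them were measured. Without PABPC3, which was selected on this ratio, the median log2 ratio of the other 134 with both proteins against ADAR2 was -0.0040, against -0.46 for the processed pseudogenes. Of these 134, 8 were lower and 1 was higher by 1.5-fold or more, where 2.52% of all measured genes were lower and 0.871% higher. Most of the lower genes were processed pseudogenes, 308 of 405. Of the 12765 measured protein-coding genes, 56 were lower and 47 higher by that rule. The lower share was thus larger among the 134 retrogenes than among protein-coding genes, though their median was near 0. PABPC4L was among the 134, at 0.02.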
